A study of Mus musculus with 6 samples.

Results

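Glutamate receptors and the scaffold proteins beneath them at excitatory synapses were described here as 44 genes. They were chosen by name, as the subunits of the AMPA (Gria), NMDA (Grin), kainate (Grik) and delta (Grid) receptors, the metabotropic receptors (Grm), the scaffold families Dlg1 to Dlg4, Dlgap and Shank, and the gamma subunits Cacng2 to Cacng8. All 44 are among the 35485 features of the series. The libraries came from male C57BL/6N mice (C57BL/6 in the labels) that had been obtained as young animals, and were made 8 weeks after the operation. The mice carried no transgene that the sources name, and both groups had chest surgery with analgesia and the same behavioral tests before tissue was taken. CHF mice had ischemic chronic heart failure after myocardial infarction by ligation of the left coronary artery, and sham mice had the same opening of the chest without ligation. Pooled RNA of 3 CHF mice gave 1 library per tissue (hippocampus, prefrontal cortex, left ventricle) and pooled RNA of 6 sham mice another, so that 6 libraries were compared and no spread between mice can be read from them. The brain regions were analyzed as whole tissue, in which fewer cells of a type and less RNA per cell cannot be told apart.

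Glutamate is the main excitatory transmitter of the brain. AMPA receptors carry the fast current, NMDA receptors admit calcium and trigger synaptic plasticity, and kainate and delta receptors shape transmission at particular synapses. Metabotropic receptors act through G proteins, group I mostly at the postsynaptic side and groups II and III mostly as presynaptic brakes. The Dlg proteins (the PSD-95 family) hold receptors at the membrane, the SAPAP proteins (Dlgap genes) link them to the Shank proteins, and the transmembrane AMPA receptor regulatory proteins (TARPs, Cacng genes) carry AMPA receptors to the synapse and set their gating.

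Libraries held 15.7 to 25.9 M unique gene reads. Of 4 dentate granule cell markers 3 were higher in hippocampus than in prefrontal cortex, among them C1ql2 (log2 ratio 6.51) and Prox1 (2.92), and Trpc6 (0.33) was not called. The 5 pyramidal cell markers of the hippocampus were all higher there, among them Fibcd1 (4.67), and 5 of 5 neocortical markers were lower, among them Cux2 (-1.92), as the tissue labels have it. Other cell types differed between the regions as well. Of 6 oligodendrocyte markers 5 were higher in hippocampus (median log2 ratio 0.55, summed level 3450 and 3818 reads per M in CHF and sham hippocampus against 2332 and 2648 reads per M in CHF and sham prefrontal cortex), and of 5 astrocyte markers 3 were higher and 2 lower, with Gfap at 2.18. Of 5 neuronal markers 3 were lower in hippocampus and 1 was higher (median -0.26). The part of these differences in the results below was not tested. By the lane tags in the names of the deposited sheets, the hippocampal libraries were read on another flow-cell lane than those of prefrontal cortex, so that lane and region cannot be told apart. The methods describe multiplexed libraries loaded across lanes, and the labels name no lane, so the lane of each library is known from these tags alone.

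Levels were deposited as RPKM, reads per kilobase per M reads. The length used was the span of the gene with its introns in 44 of 44 genes, so that long genes have low values. The median span of the 44 genes was 165.3 kb, against 24.3 kb for features with 100 unique reads in each brain library. On this scale the highest gene was Dlg4 (PSD-95, the main scaffold of the postsynaptic density), with 41.8 and 44.3 RPKM in CHF and sham hippocampus and 38.5 and 38.8 RPKM in CHF and sham prefrontal cortex. It was followed by Grin1 (the obligatory NMDA receptor subunit, mean of the 4 brain libraries 35.0 RPKM), Shank1 (25.4 RPKM) and Grm2 (11.7 RPKM). With reads divided by the longest annotated coding transcript instead, the order was Grin1 (229 reads per kilobase per M reads), Dlg4 (174), Dlgap3 (154), Gria1 (125) and Shank1 (124), and Grm2 stood at 28.6. Gria1, which spans 318.6 kb, had a mean of 2.18 RPKM, so the order of genes depends on the length chosen, while ratios between libraries do not. Only 38.2% of the reads on Grin1 in the brain were unique, and its place depends on the reads it shares with other features. From unique reads alone, per transcript kilobase and per M unique reads, Grin1 stood at 95.5, below Dlg4 (189), Dlgap3 (167), Gria1 (136), Shank1 (135), Grik5 (117) and Dlgap4 (106). Reads in introns were not told apart from those in exons. Both sets of values per transcript kilobase can therefore include intron reads and are not levels of mature mRNA. The part of such reads was not tested. The features of Dlg4 and Shank1 end 2 and 2.2 kb before the annotated 3′ ends, while those of Dlgap3 and Gria1 reach theirs. Values per transcript kilobase may thus be too low for Dlg4 and Shank1, and the order may differ. At the low end Grm6, a receptor known from retinal bipolar cells, had 1 unique read in each hippocampal library and 0 in each prefrontal library, and Grin3b and Cacng6 had fewer than 100 in every brain library.

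**Figure D1:**
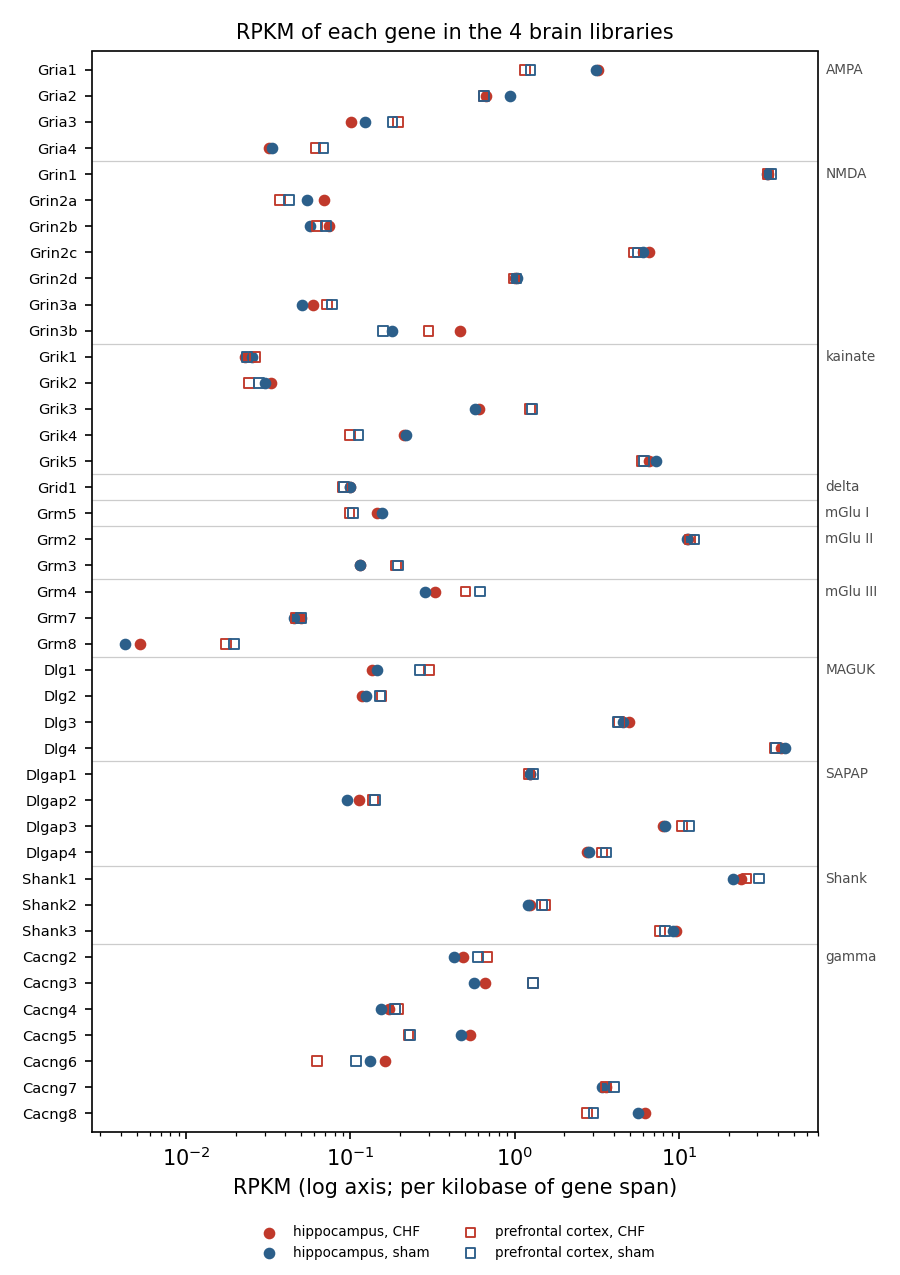
RPKM (log axis) of 41 genes in the 4 brain libraries, 1 point per library, filled circles for hippocampus and open squares for prefrontal cortex, red for CHF and blue for sham; Grm6, at 0 in prefrontal cortex, is not drawn. Gria1 lies at 3.20 and 3.13 RPKM in hippocampus, right of 1.16 and 1.25 RPKM in prefrontal cortex, while Grin1 and Grm7 overlap.

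The first comparison asked how these genes differ between hippocampus and prefrontal cortex. Of 43 genes tested 29 passed an adjusted p of 0.05 (67.4%), 12 higher and 17 lower in hippocampus. Among all 16554 features tested the share was 31.6%, with 15.1% higher and 16.4% lower. This background was not matched for read counts, and a gene with more reads is called more readily. The median log2 ratio of the 43 genes was -0.04, against -0.002 for all features. A log2 ratio of 0.9 or more in either direction with the same adjusted p was reached by 9 genes, 4 higher and 5 lower, against 8.67% of all features. The fit is edgeR's quasi-likelihood test on unique gene reads with region and condition as terms. It has 1 residual degree of freedom, namely how a region difference varied between the CHF and the sham pool, and its p-values rest mostly on the spread borrowed across all features (median prior degrees of freedom 59.7). Of the 29 calls 18 held in all 10 other fits, and that of Grm8 held in the 9 that tested it.

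**Figure D2:**
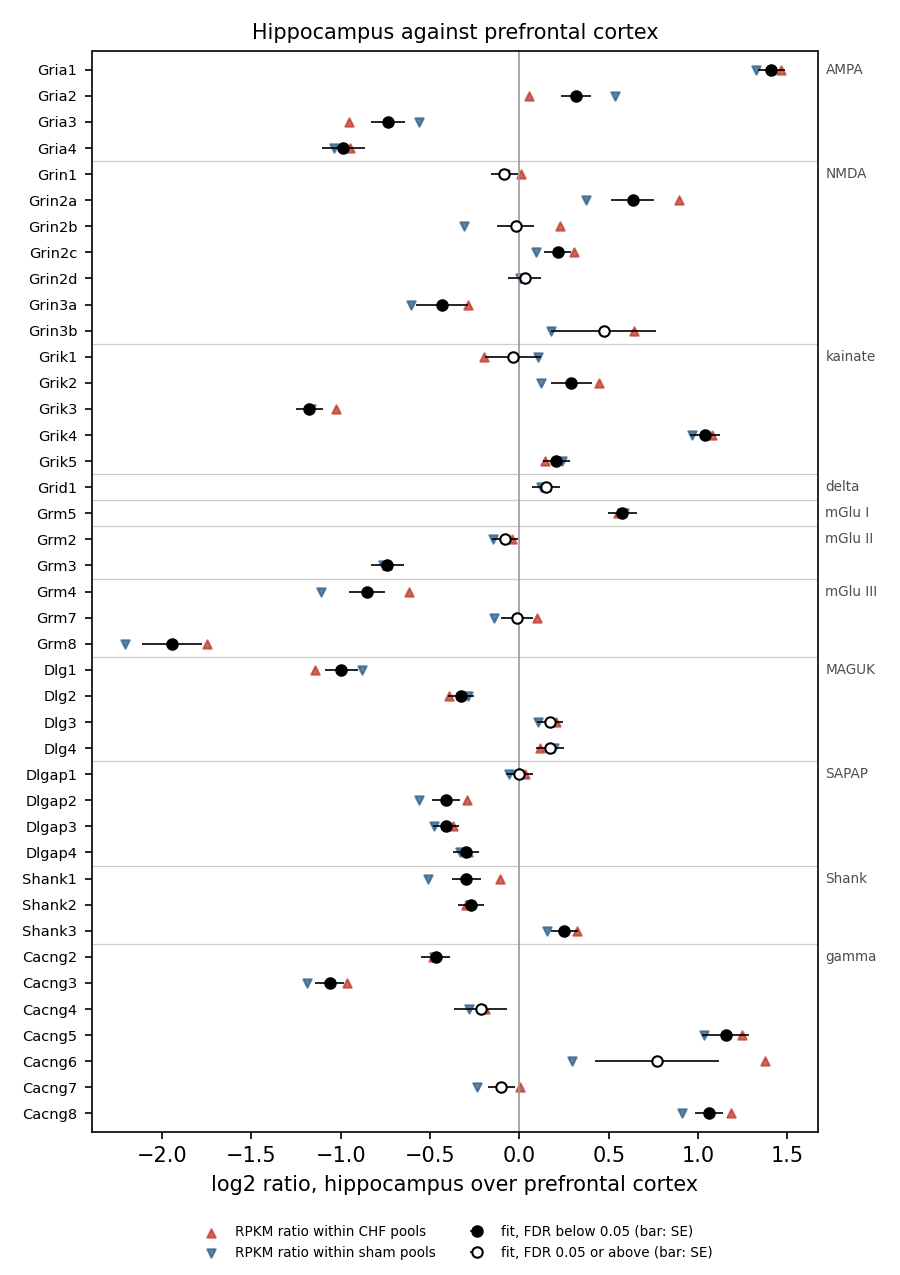
Log2 ratio of hippocampus over prefrontal cortex for 41 of the genes tested. Circles give the fit with its SE, filled where the adjusted p was below 0.05, and triangles give the ratio of RPKM within CHF pools (red, up) and within sham pools (blue, down); Gria1 (1.41) lies farthest right and Grm8 (-1.95) farthest left, and the triangles of Gria2 lie apart at 0.06 and 0.54.

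The 4 AMPA receptor subunits were all called, 2 in each direction. Gria1 encodes GluA1, the subunit most tied to activity-dependent insertion of receptors, and lies on chromosome 11 from 57011618 to 57330244 (GRCm38, plus strand). It had 3.20 and 3.13 RPKM in CHF and sham hippocampus, against 1.16 and 1.25 RPKM in CHF and sham prefrontal cortex, from 28646 and 24904 unique reads against 7430 and 9680 unique reads. The regions did not overlap, and Gria1 was 2.66-fold higher in hippocampus (log2 ratio 1.41 ± 0.08 SE, adjusted p = 3.47e-24). Gria2 encodes GluA2, which makes the receptor nearly impermeable to calcium. Its level was 0.671 and 0.939 RPKM in CHF and sham hippocampus and 0.645 and 0.648 RPKM in CHF and sham prefrontal cortex. Here the sham hippocampus stood above the other 3 libraries. The log2 ratio of Gria2 was 0.32 ± 0.09 (SE, adjusted p = 0.0023), but 0.06 within CHF and 0.54 within sham pools. The call was lost with DESeq2 and with total gene reads. In fits with 1 library left out and no condition term, the ratio was 0.06 without the sham hippocampus and 0.57 without the CHF hippocampus. It was 0.34 without the CHF and 0.33 without the sham prefrontal cortex. The feature of Gria2 ends 3.5 kb before the annotated 3′ end of the gene.

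The other AMPA receptor subunits were lower in hippocampus. Gria3 (GluA3) had 0.101 and 0.122 RPKM in CHF and sham hippocampus, against 0.195 and 0.180 RPKM in CHF and sham prefrontal cortex (log2 ratio -0.73 ± 0.09 SE, adjusted p = 2.08e-09). Gria4 (GluA4), a subunit of fast channels in interneurons, had 0.0317 and 0.0334 RPKM in CHF and sham hippocampus and 0.0613 and 0.0685 RPKM in CHF and sham prefrontal cortex (log2 ratio -0.98 ± 0.12 SE, adjusted p = 3.58e-10). In both genes each hippocampal library was below each prefrontal library. Of 6 GABAergic neuron markers Pvalb (-0.58) and Vip (-1.80) were also lower in hippocampus and the other 4 were not called, among them Gad1 (0.11), and the part of these cells was not tested.

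Among the TARPs and related gamma subunits 2 of 7 were higher and 2 lower in hippocampus. Cacng8 (TARP gamma-8) had 6.22 and 5.66 RPKM in CHF and sham hippocampus, against 2.74 and 3.01 RPKM in CHF and sham prefrontal cortex. It is the TARP known for its abundance in hippocampus, and it was 2.09-fold higher there (log2 ratio 1.06 ± 0.08 SE, adjusted p = 4.67e-18). Cacng5 (gamma-5) had 0.535 and 0.473 RPKM in CHF and sham hippocampus and 0.225 and 0.231 RPKM in CHF and sham prefrontal cortex (log2 ratio 1.16 ± 0.13 SE, adjusted p = 4.82e-11). Cacng3 (gamma-3) was the opposite, with 0.661 and 0.568 RPKM in CHF and sham hippocampus, against 1.29 and 1.29 RPKM in CHF and sham prefrontal cortex. It was 2.09-fold lower in hippocampus (log2 ratio -1.06 ± 0.08 SE, adjusted p = 3.66e-18). Cacng2 (stargazin, gamma-2) had 0.485 and 0.428 RPKM in CHF and sham hippocampus, against 0.680 and 0.596 RPKM in CHF and sham prefrontal cortex, and was lower by a smaller amount (log2 ratio -0.47 ± 0.08 SE, adjusted p = 2.54e-06). Of the 7 genes Cacng7, an AMPA receptor regulator of the second TARP type, had the next highest mean RPKM of the 4 brain libraries after Cacng8 and the highest RPKM in prefrontal cortex, with 3.59 and 3.39 RPKM in CHF and sham hippocampus and 3.58 and 4.00 RPKM in CHF and sham prefrontal cortex, and its regions overlapped. Cacng4, Cacng6 and Cacng7 were not called, with ratios of -0.22, 0.77 and -0.10.

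The kainate receptor subunits also held genes that differed in opposite directions. Grik4 (GluK4), a subunit known from CA3 neurons, had 0.210 and 0.219 RPKM in CHF and sham hippocampus, against 0.0994 and 0.112 RPKM in CHF and sham prefrontal cortex. It was 2.06-fold higher in hippocampus (log2 ratio 1.04 ± 0.08 SE, adjusted p = 5.42e-17). Grik3 (GluK3) had 0.607 and 0.569 RPKM in CHF and sham hippocampus, against 1.24 and 1.28 RPKM in CHF and sham prefrontal cortex, and was 2.26-fold lower in hippocampus (log2 ratio -1.18 ± 0.07 SE, adjusted p = 3.22e-21). Of the reads on Grik3 85.4% were unique. The high-affinity partner Grik5, the best expressed of the family by RPKM, had 6.55 and 7.24 RPKM in CHF and sham hippocampus, against 5.93 and 6.13 RPKM in CHF and sham prefrontal cortex. Grik2, a pore subunit, had 0.0329 and 0.0301 RPKM in CHF and sham hippocampus, against 0.0242 and 0.0277 RPKM in CHF and sham prefrontal cortex. Grik5 (log2 ratio 0.21) and Grik2 (0.29) were called higher by small amounts, and both calls were lost with DESeq2 or with total gene reads. Grik1 had a ratio of -0.04 and was not called.

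The proximal promoters of Grik4 and Grik3 are shown because these genes belong to 1 family and differed in direction. The windows run from 250 bases before to 50 bases after the annotated start and were taken from RefSeq (GRCm38.p6). Of the 44 genes 29 have such a window. Capitals mark the GC box GGGCGG on either strand.
Grik4, chr9:42944322-42944621, minus strand: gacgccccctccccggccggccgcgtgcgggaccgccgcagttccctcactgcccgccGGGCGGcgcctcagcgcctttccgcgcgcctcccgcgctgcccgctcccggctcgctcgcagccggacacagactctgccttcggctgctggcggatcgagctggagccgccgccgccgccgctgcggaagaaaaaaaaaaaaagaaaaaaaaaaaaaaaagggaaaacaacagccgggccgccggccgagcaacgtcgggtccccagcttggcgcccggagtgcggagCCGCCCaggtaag
Grik3, chr4:125490446-125490745, plus strand: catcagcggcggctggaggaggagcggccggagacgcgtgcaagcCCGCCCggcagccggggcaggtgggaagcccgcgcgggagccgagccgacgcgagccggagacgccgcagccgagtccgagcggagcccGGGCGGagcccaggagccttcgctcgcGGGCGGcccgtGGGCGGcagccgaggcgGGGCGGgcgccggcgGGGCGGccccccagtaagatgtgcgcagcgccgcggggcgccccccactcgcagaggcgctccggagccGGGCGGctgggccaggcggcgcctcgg
The Grik3 window is 82.0% G and C and holds 7 GC boxes, and the Grik4 window is 70.0% G and C and holds 2. Neither window holds the letters TGACG (the core of the cAMP response element), CAGATG (an E-box) or TATAAA on either strand. Over 42 windows of the genes described, 42.9% hold a GC box, against 35.7% of all 32851 windows, and the other motifs were found in 14.3% against 20.8% (TGACG), 7.1% against 17.2% (CAGATG) and 7.1% against 13.6% (TATAAA). These are matches of letters only, and the GC box was present in kainate receptor genes of both directions.

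In the NMDA receptor family the obligatory subunit was not called, and 2 of 7 genes were higher and 1 lower. Grin1 had 35.0 and 34.2 RPKM in CHF and sham hippocampus and 34.7 and 36.2 RPKM in CHF and sham prefrontal cortex (log2 ratio -0.08 ± 0.07 SE, adjusted p = 0.424), and the regions overlapped. Grin2a (GluN2A), the subunit that becomes prominent as synapses mature, had 0.0689 and 0.0547 RPKM in CHF and sham hippocampus, against 0.0371 and 0.0422 RPKM in CHF and sham prefrontal cortex. It was 1.55-fold higher in hippocampus (log2 ratio 0.64 ± 0.12 SE, adjusted p = 1.71e-05). Grin2b (GluN2B), which is prominent early in development, had 0.0735 and 0.0569 RPKM in CHF and sham hippocampus and 0.0627 and 0.0706 RPKM in CHF and sham prefrontal cortex, so that its regions overlapped (log2 ratio -0.02 ± 0.10 SE, adjusted p = 0.913). The features of Grin2a and Grin2b end 9.8 and 16.6 kb before the annotated 3′ ends, so these counts leave out part of the transcripts. Grin2c was slightly higher (log2 ratio 0.21) and Grin3a lower (-0.44), both lost with DESeq2 or total gene reads, and Grin2d (0.03) and Grin3b (0.47) were not called.

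Among the metabotropic receptors, Grm5 was higher in hippocampus and Grm3, Grm4 and Grm8 were lower. Grm5, a group I receptor, which signals through phospholipase C, had 0.145 and 0.155 RPKM in CHF and sham hippocampus, against 0.0985 and 0.103 RPKM in CHF and sham prefrontal cortex (log2 ratio 0.58 ± 0.08 SE, adjusted p = 2.48e-08). In group II, Grm3, also a receptor of astrocytes, had 0.114 and 0.115 RPKM in CHF and sham hippocampus, against 0.190 and 0.195 RPKM in CHF and sham prefrontal cortex (log2 ratio -0.74 ± 0.09 SE, adjusted p = 1.16e-09). Grm2 had 11.4 and 11.2 RPKM in CHF and sham hippocampus and 11.7 and 12.4 RPKM in CHF and sham prefrontal cortex, the highest RPKM of the metabotropic genes, and was not called (-0.08). In group III, Grm8 had the lowest ratio of all genes described, 3.86-fold lower in hippocampus (log2 ratio -1.95 ± 0.17 SE, adjusted p = 1.83e-15). It had 123 and 89 unique reads in CHF and sham hippocampus, against 294 and 399 in CHF and sham prefrontal cortex. Grm4 was lower too, with 0.326 and 0.286 RPKM in CHF and sham hippocampus, against 0.501 and 0.616 RPKM in CHF and sham prefrontal cortex (log2 ratio -0.85 ± 0.10 SE, adjusted p = 1.00e-10). Grm7, a widespread presynaptic receptor, had 0.050 and 0.0452 RPKM in CHF and sham hippocampus and 0.0468 and 0.0498 RPKM in CHF and sham prefrontal cortex, and was not called (-0.01). The delta receptor gene Grid1 was not called (0.15).

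Of the scaffolds, 7 of 11 were lower in hippocampus and 1 was higher. Dlg1 (SAP97) had 0.136 and 0.145 RPKM in CHF and sham hippocampus, against 0.30 and 0.266 RPKM in CHF and sham prefrontal cortex. It was 2.00-fold lower in hippocampus (log2 ratio -0.996 ± 0.09 SE, adjusted p = 2.28e-14). Dlg2 (PSD-93) was lower by less (log2 ratio -0.33 ± 0.07 SE, adjusted p = 0.00025), and Dlg4 (0.17, adjusted p = 0.0947) and Dlg3 (SAP102, 0.17, adjusted p = 0.065) were not called. Without the CHF hippocampus the ratio of Dlg4 was 0.23, and without the sham hippocampus that of Dlg3 was 0.21. Dlg2 had 0.118 and 0.124 RPKM in CHF and sham hippocampus, against 0.155 and 0.151 RPKM in CHF and sham prefrontal cortex. In the SAPAP family Dlgap3, the member known for its role in the striatum, had 8.02 and 8.26 RPKM in CHF and sham hippocampus, against 10.4 and 11.5 RPKM in CHF and sham prefrontal cortex (log2 ratio -0.41 ± 0.08 SE, adjusted p = 8.82e-06). Dlgap2 (-0.41) and Dlgap4 (-0.30) were also lower, and Dlgap1 was not called (0.00023). The Shank genes, which encode the deepest layer of the scaffold, were split. Shank1 had 23.9 and 21.4 RPKM in CHF and sham hippocampus, against 25.7 and 30.5 RPKM in CHF and sham prefrontal cortex (log2 ratio -0.30 ± 0.08 SE, adjusted p = 0.00311). The call was lost with total gene reads, and without the sham prefrontal cortex the ratio of Shank1 was -0.18. Shank3, a gene tied to autism in humans, had 9.60 and 9.14 RPKM in CHF and sham hippocampus, against 7.68 and 8.22 RPKM in CHF and sham prefrontal cortex. Shank2 was lower (-0.27) and Shank3 higher (log2 ratio 0.25 ± 0.07 SE, adjusted p = 0.00609). Neither call held in all 10 other fits, and without the CHF prefrontal cortex the ratios were -0.24 and 0.21. The features of Dlg2, Dlgap1 and Shank2 lack 614.1, 455.7 and 173.6 kb of the annotated 5′ part of the gene.

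Other genes of the excitatory synapse were taken from a list of 49 names, of which 48 were in the files and 44 were tested. Of these 11 were higher and 12 lower in hippocampus (52.3%). The largest ratios were those of Shisa6 (4.19), an AMPA receptor partner, and Homer3 (3.11), a scaffold bound to group I metabotropic receptors, on the higher side. On the lower side they were those of Gsg1l (-1.34), an AMPA receptor partner, and Grip2 (-1.26), a PDZ scaffold for AMPA receptors. Of 7 glutamate transporters 1 was called, the neuronal uptake carrier Slc1a1 (0.68).

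The second comparison asked whether heart failure changed these genes in the brain. With 1 pool per group there is no test, and a gene counted as past the threshold where its RPKM differed between CHF and sham by at least 0.9 on the log2 scale, provided that both pools had 100 or more unique reads for it. No measured gene passed it. In hippocampus 0 of 40 genes were higher and 0 lower, where 0.0541% and 0.135% of 11086 features were. In prefrontal cortex 0 of 41 were higher and 0 lower, where 0.00930% and 0.0465% of 10747 features were. Since so few features passed in all, a count of 0 is what that background gives. The ratios ran from -0.48 to 0.37 in hippocampus (median 0.055, all features 0.032) and from -0.30 to 0.19 in prefrontal cortex (median -0.081, all features -0.013). Exact 95% intervals cover the counting error of the reads only, not the spread between mice. In hippocampus they lay above 0 for 17 genes (22.5% of all features) and below 0 for 8 (13.3%), and in prefrontal cortex above 0 for 3 (12.3%) and below 0 for 16 (15.8%). Whether an interval excludes 0 depends on the reads of a gene, and these shares were not matched for reads.

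**Figure D3:**
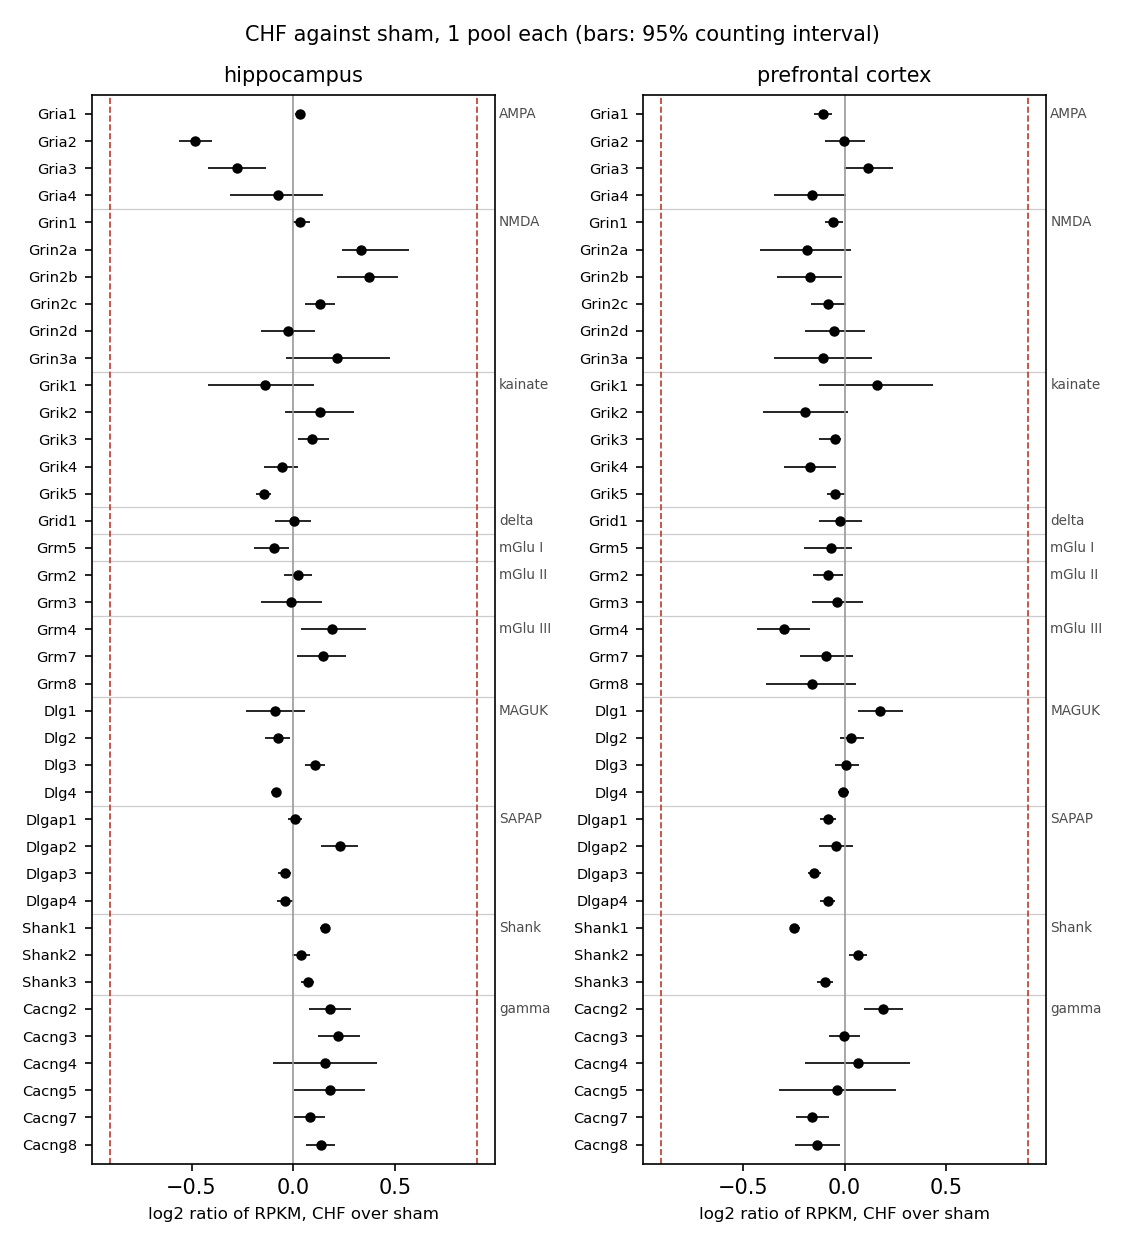
Log2 of the CHF to sham ratio of RPKM in hippocampus (left, 38 genes) and prefrontal cortex (right, 39 genes), 1 pool per group, with 95% counting intervals of the ratio of unique reads; dashed lines mark the threshold of 0.9 in either direction. Every point lies inside the dashed lines, and Gria2 in hippocampus (-0.48) is the farthest from 0.

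The largest ratios in hippocampus belonged to AMPA and NMDA receptor subunits and ran in opposite directions. Gria2 had 2224 unique reads in CHF and 2757 in sham hippocampus, or 0.671 and 0.939 RPKM, a log2 ratio of -0.48 (interval -0.56 to -0.40). In prefrontal cortex its ratio was -0.01 (interval -0.10 to 0.10). Gria3 had 787 reads in CHF and 847 in sham hippocampus (log2 ratio -0.28, interval -0.42 to -0.14). On the other side Grin2b had 916 reads in CHF and 632 in sham hippocampus (log2 ratio 0.37, interval 0.22 to 0.51), and Grin2a had 757 and 509 (0.33, interval 0.24 to 0.57). For these 4 genes the difference between the pools was larger than counting error and smaller than the threshold. Of the 6 measured TARP genes all had ratios above 0 in hippocampus, from 0.08 to 0.22, and 5 of 6 intervals lay above 0, Cacng3 being the highest (0.22, interval 0.12 to 0.32). The intervals of Cacng5 and Cacng7 began at 0.002, below the median ratio of all features (0.032). Grik5 (-0.14, interval -0.18 to -0.11) and Dlg4 (-0.08, interval -0.11 to -0.06) lay below 0. Markers of other cells and of neighboring tissue also differed between the 2 hippocampal pools. The 4 thalamus markers had ratios from 0.01 to 0.83 (Tcf7l2), 2 with intervals above 0, and summed to 78.9 reads per M in CHF and 66.1 in sham. Of the choroid plexus and meninges markers 3 were measured, Slc6a13 (0.68), Ttr (0.39) and Dcn (-0.36), and the list of 4 summed to 77.2 reads per M in CHF and 61.4 in sham. Of 5 neuronal markers 3 had intervals below 0 and 1 above, with Snap25 the lowest (-0.22), and the 3 glutamatergic neuron markers lay between -0.15 (Slc17a7) and -0.01. Summed levels were 2766 reads per M in CHF and 2946 in sham for the neuronal list, and 3957 in CHF and 4315 in sham for the glutamatergic one. The part of these markers in the ratios above was not tested.

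In prefrontal cortex the lowest ratio was that of Grm4, with 814 reads in CHF and 1211 in sham (log2 ratio -0.30, interval -0.43 to -0.17). Shank1 had 24952 reads in CHF and 35725 in sham (log2 ratio -0.25, interval -0.27 to -0.22), and Dlgap3 had a ratio of -0.15 (interval -0.18 to -0.12). These scaffold genes are among the best counted, so their intervals are narrow. Above 0 were Cacng2 (0.19, interval 0.10 to 0.29), Dlg1 (0.17, interval 0.06 to 0.29) and Shank2 (0.06, interval 0.02 to 0.11). All 6 measured NMDA receptor subunits and all 4 SAPAP genes had ratios below 0, down to -0.18 for Grin2a and -0.15 for Dlgap3. Among the other synaptic genes 1 was past the threshold in either region, Arc, an activity-induced gene that regulates AMPA receptor uptake, with 2596 reads in CHF and 6161 in sham prefrontal cortex (-0.97). Cell markers also differed between the prefrontal pools. Intervals lay below 0 for 5 of 6 oligodendrocyte markers (median -0.19) and 3 of 3 oligodendrocyte precursor markers (median -0.2). Of 6 GABAergic neuron markers 4 had intervals above 0 and 1 below, and of 5 neuronal markers 2 above and 2 below. The part of these markers in the prefrontal ratios was not tested.

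Of 40 genes measured in both regions 9 had intervals above 0 in hippocampus and below 0 in prefrontal cortex and 0 the reverse. Among all 10554 features measured in both, 4.42% had intervals above 0 in hippocampus and below 0 in prefrontal cortex, and 2.66% the reverse. Intervals were above 0 in both regions for 1 gene (3.30% of all features) and below 0 in both for 3 (2.53%). Intervals narrow as reads rise, and the shares of all features were not matched for reads. Nor were the intervals centered on the median of all features, 0.032 in hippocampus and -0.013 in prefrontal cortex. The hippocampal and prefrontal comparisons share no library, but each rests on 1 pool per group. Their pools may come from the same mice.

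The third comparison was CHF against sham in the left ventricle, where most of these genes are barely read. Of the 44 genes 8 were measured. Among them 2 were higher past the threshold (10.5% of 9771 features) and 1 was lower (1.54%). Dlg4 had 546 unique reads in CHF and 130 in sham left ventricle, or 0.919 and 0.280 RPKM (log2 ratio 1.72, interval 1.45 to 2.02). Grik5 had 419 reads in CHF and 166 in sham, or 0.304 and 0.158 RPKM (log2 ratio 0.94, interval 0.73 to 1.26). Dlg1, Dlgap4 and Shank3 had the most reads, 1346 to 3041 per library, and ratios of 0.01, 0.30 and -0.35. Also measured were Dlg3 (0.71) and Grin3b (-0.30), the span of which overlaps a feature on the other strand.

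**Figure D4:**
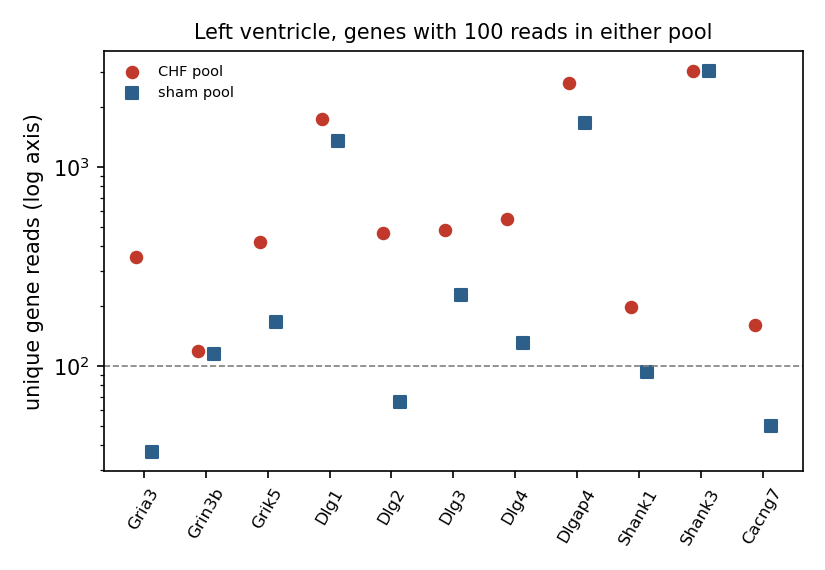
Unique gene reads (log axis) of 11 genes with at least 100 reads in either left ventricle pool, CHF as red circles left of sham as blue squares, with the minimum of 100 reads dashed. Gria3 and Dlg2 show the widest gaps, with 353 and 465 reads in CHF against 37 and 66 in sham.

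A further 4 genes reached 100 reads in CHF alone and so were not measured. Gria3 had 353 reads in CHF and 37 in sham left ventricle (log2 ratio 2.88, interval 2.42 to 3.44), and Dlg2 had 465 and 66 (2.41, interval 2.10 to 2.87). Cacng7 had 161 and 50 (1.34), and Shank1 had 197 and 93 (0.72). In these libraries 4 of 5 neuronal markers were at or near 0, with 5 reads in CHF and 0 in sham for Snap25, 5 and 1 for Syt1, 1 and 0 for Rbfox3 and 7 and 1 for Nefl. The other, Stmn2, had 180 in CHF and 93 in sham, and the list summed to 9.96 reads per M in CHF and 6.05 in sham. Of 3 glutamatergic neuron markers Slc17a7 had 465 reads in CHF and 297 in sham and Nrgn 142 and 130, with ratios of 0.29 and -0.23, while Neurod6 had 0 in both, and the list summed to 30.5 reads per M in CHF and 27.2 in sham. The fibroblast markers, 4 of 4, were higher in CHF (median log2 ratio 3.32, summed level 3338 against 347.0 reads per M in sham), as were 3 of 3 measured microglia markers, which macrophages also express (median 1.86, summed level 384 against 105.0). The part of these cells in the ratios was not tested. Scaling by TMM factors in place of RPKM moved the median of all features by -0.28, after which Dlg4 stood at 1.44 and Grik5 at 0.70, below the threshold, while the ratio of Dlg1 turned to -0.27.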

How the data were processed

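RNA of 3 CHF or 6 sham mice was pooled per tissue. Ribosomal RNA was removed before stranded libraries were made by the authors, who sequenced single ends and mapped them to GRCm38 with CLC Genomics Workbench (version not given in the sources used here). For 35485 features they deposited counts of reads per gene, unique and total, and of reads in exons (15.7 to 25.9 M unique gene reads per library, 89.8 to 92.0% of the total). The deposited RPKM are exon reads divided by the listed length and the total gene reads. Recomputation gave the deposited value within 1e-06 in every feature, and reads across exon junctions are 0. The listed length, deposited in bases, equalled the span on the genome in 99.7% of 21888 features with a length. Tables of the authors' own CHF to sham comparisons hold ratios and were not used.

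Regions were compared by edgeR 4.0.16 (R 4.3.3) with filterByExpr, TMM factors, glmQLFit and glmQLFTest on the 4 brain libraries, with region and condition as terms and Benjamini-Hochberg adjustment over 16554 features; the SE is the log2 ratio divided by the root of F. CHF and sham were compared by log2 ratios of RPKM with 95% intervals (exact, Clopper-Pearson) for the CHF fraction of a gene's unique reads, which cover counting error only. Counts are over all 44 members, and values of 2 of them are not reported here. The 44 members, the rule that every other member is described, and all lists were chosen with earlier results of these data known. Alternatives were DESeq2 1.42.0 and its size factors, other read minimums, thresholds and read types, no condition term, each library left out, a pseudocount of 0.01 RPKM, and a lowess trend on length taken out. The fits with 1 library left out had no condition term either. Their spread came from the region that kept both libraries, so a call lost there need not come from the library left out. Transcript lengths and 3′ and 5′ ends are those of GENCODE vM21. Further tools were scipy 1.17.1, matplotlib 3.10.9 and statsmodels 0.14.6, with pandas 2.3.3 and numpy 2.4.6 under Python 3.11.15.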

Additional observations from a re-analysis of the deposited data

Results flagged for a closer look

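In the genes given here the CHF to sham ratio lay above 0 in hippocampus and below 0 in prefrontal cortex, with counting intervals on opposite sides of 0. With 1 pool per group the difference between the regions was not tested. The log2 ratios of RPKM, CHF over sham, were 0.37 in hippocampus and -0.17 in prefrontal cortex for Grin2b, 0.19 and -0.30 for Grm4, and 0.16 and -0.25 for Shank1. They were 0.13 and -0.14 for Cacng8, and 0.0831 and -0.16 for Cacng7, in hippocampus and prefrontal cortex. The smallest were those of Gria1 (0.0313 and -0.11), Grik3 (0.0927 and -0.0465) and Shank3 (0.0714 and -0.10). With TMM factors the hippocampal value of Gria1 was -0.001, and with the trend on gene length taken out it was -0.0086. The hippocampal intervals of Cacng7 and Grik3 began at 0.002 and 0.022, also close to 0. Prefrontal intervals ended close to 0 too, at -0.0135 for Grin2b, -0.0159 for Grik3 and -0.022 for Cacng8. TMM factors moved the median of all features in hippocampus by -0.031, and intervals were not recomputed with them. All the CHF to sham ratios given here lie below the threshold of 0.9.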

How the results depend on the processing

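Of the region calls, 12 higher, 17 lower and 29 in all, DESeq2 kept 7 higher, and leaving out 1 library gave 6 to 12 higher, the fewest without the CHF prefrontal cortex. The fits with 1 library left out also had no condition term, so fewer calls need not come from that library. Asking for a log2 ratio of 0.9 as well left 9 calls, 4 higher and 5 lower. Of the 29 genes 18 kept their call in all 10 other fits, Grm8 kept it in the 9 that tested it, and no called gene changed direction. With a minimum of 1 read in both pools, 1 gene (Grin3b) passed the CHF threshold in hippocampus and 1 in prefrontal cortex, and under no other alternative did any. In left ventricle the 2 higher genes became 1 with TMM factors (member median -0.113), 1 with DESeq2 size factors (median -0.1294), 1 at a threshold of 1.0 and 1 with the trend on length taken out. They became 0 with 200 reads, 4 with 50 reads (median 0.7138), 5 with 100 reads in either pool (median 0.7182) and 16 with 1 read (4 lower, median 0.7138), because these settings change which genes are measured. The region fit takes the pool number, which is the condition, as a block, and without this block it called 28 genes and lost only Grik2. CHF and sham could not be paired, since each tissue and condition has 1 library. Depth limits genes with few reads: the counting interval of Grin3b (85 and 29 reads) in hippocampus ran from 0.76 to 2.04.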

Other observations

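Oligodendrocyte markers ran the same way in both regions in CHF mice. All 6 had ratios below 0 in hippocampus (median log2 ratio -0.093, 4 counting intervals below 0) and all 6 in prefrontal cortex (median -0.19, 5 intervals below 0), none past the threshold. The synaptic genes Lrrtm1, Lrrtm2, Lrrtm3 and Nptxr had 0 unique reads in all 6 libraries and could not be compared.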
